A study of Mus musculus with 9 samples.

Results

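Vascular endothelial genes were followed in the fetal mouse gonad. The set held 10 genes, fixed by name: the adhesion molecules Pecam1 and Cdh5, the VEGF receptors Kdr and Flt1, the angiopoietin receptor Tek with its relative Tie1, the co-receptor Eng, and the SOXF transcription factors Sox7, Sox17 and Sox18. All 10 were among the 15300 genes that each deposited table covers. Gonads free of mesonephros were taken from C57BL/6 fetuses at age E13.5 (days of gestation) and profiled by RNA sequencing, with 3 samples in each of 3 groups. XX-WT were ovaries and XY-WT were testes, and the labels give both as Sox9flox/flox wildtype. XY-KO were Sox9flox/flox testes that also carried AMH-Cre. The floxed Sox9 alleles were therefore shared by every group. Cre under the AMH promoter acts in Sertoli cells, so the labelled design does not delete Sox9 in endothelial cells. Whether each sample came from 1 fetus or from a pool is left unsaid in the labels, so errors describe the spread between samples, which may be technical.

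Endothelial cells line blood vessels and are held together by the adhesion molecules PECAM1 and VE-cadherin, the product of Cdh5. They receive VEGF through KDR and FLT1, receive angiopoietins through TEK, and use the SOXF factors to set vessel identity. In the mouse, the early testis gains a large artery along its coelomic surface, built from endothelial cells that migrate in from the mesonephros, whereas the early ovary does not form that vessel.

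Values are the authors' own results from limma, a linear model test for each gene. A gene was called higher or lower at an adjusted p under 0.05. SE is the standard error implied by the authors' t, and intervals are 95% intervals from it. The tables give group against group and no values for single samples, so each member is described by its level in each group. Those levels, in CPM (the share of a library's reads, scaled to a fixed total), were derived from the authors' mean and fold changes with equal weight for the groups. Depth per sample is unknown here. In tissue RNA, fewer endothelial cells and less RNA per endothelial cell cannot be told apart. The labels were checked on somatic genes: Sox9 stood at -4.47 in XX-WT and -2.76 in XY-KO against XY-WT in log2 units of the authors' deposited table, and Fst, an ovarian gene, at 7.27 in XX-WT. Each endothelial member was measured, with a mean expression above that of 18.6% (Sox18) to 86.9% (Cdh5) of all genes.

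Promoter sequence was found for 5 of the 10 members in the RefSeq table (GRCm38.p6). The 250 bases before the start of transcription are shown for 3 receptors, because Tek and Flt1 were called between the control gonads and Kdr was not. The windows are chr4:94739039-94739288 on the plus strand for Tek, chr5:147726012-147726261 on the minus strand for Flt1 and chr5:75978456-75978705 on the minus strand for Kdr. Capitals mark the ETS core GGAA and the SOX core ACAAT on either strand.
Tek: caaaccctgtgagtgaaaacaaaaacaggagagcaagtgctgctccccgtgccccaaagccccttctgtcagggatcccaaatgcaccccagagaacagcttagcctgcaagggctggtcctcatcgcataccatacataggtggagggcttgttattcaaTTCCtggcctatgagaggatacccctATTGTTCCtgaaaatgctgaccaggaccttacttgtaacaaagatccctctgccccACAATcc
Flt1: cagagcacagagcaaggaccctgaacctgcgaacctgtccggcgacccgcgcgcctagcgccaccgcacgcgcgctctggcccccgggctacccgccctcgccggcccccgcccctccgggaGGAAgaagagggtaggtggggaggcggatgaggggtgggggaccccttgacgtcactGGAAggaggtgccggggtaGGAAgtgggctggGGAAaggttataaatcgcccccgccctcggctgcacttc
Kdr: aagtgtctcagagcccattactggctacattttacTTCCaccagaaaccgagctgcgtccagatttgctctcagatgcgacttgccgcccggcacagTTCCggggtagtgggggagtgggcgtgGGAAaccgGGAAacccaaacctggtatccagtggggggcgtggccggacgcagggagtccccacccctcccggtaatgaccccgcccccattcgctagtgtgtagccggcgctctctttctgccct
ETS factors are the main activators of endothelial genes, and SOX factors, SOX9 and the SOXF members included, bind the other core. Tek held 2 ETS cores and 2 SOX cores, at 63 and 7 bases before the start, and the farther SOX core shared 1 base with an ETS core. Flt1 and Kdr held 4 ETS cores each and no SOX core in this window. Tie1 and Eng, whose promoters were also found but are not shown, held 7 and 3 ETS cores and no SOX core. Among 32851 promoter windows of the same length, 93.45% held an ETS core and 27.7% a SOX core. An ETS core is therefore the usual case, and a SOX core in Tek alone of these 5 promoters is no excess. A match is a description of these letters and shows no binding.

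Per kilobase of merged exons, Cdh5 was the most abundant member, at 13.497 CPM per kb over the 3 groups. Kdr followed at 4.30, Pecam1 at 4.03, Eng at 3.29, Tek at 2.95 and Sox7 at 2.44 CPM per kb. Flt1 stood at 1.34, Tie1 at 1.16, Sox18 at 1.11 and Sox17 at 0.890 CPM per kb. The gaps between Kdr and Pecam1, between Eng and Tek, and between each neighbouring pair from Flt1 down to Sox17 were within the 95% error of the levels. The other gaps exceeded it.

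**Figure D1:**
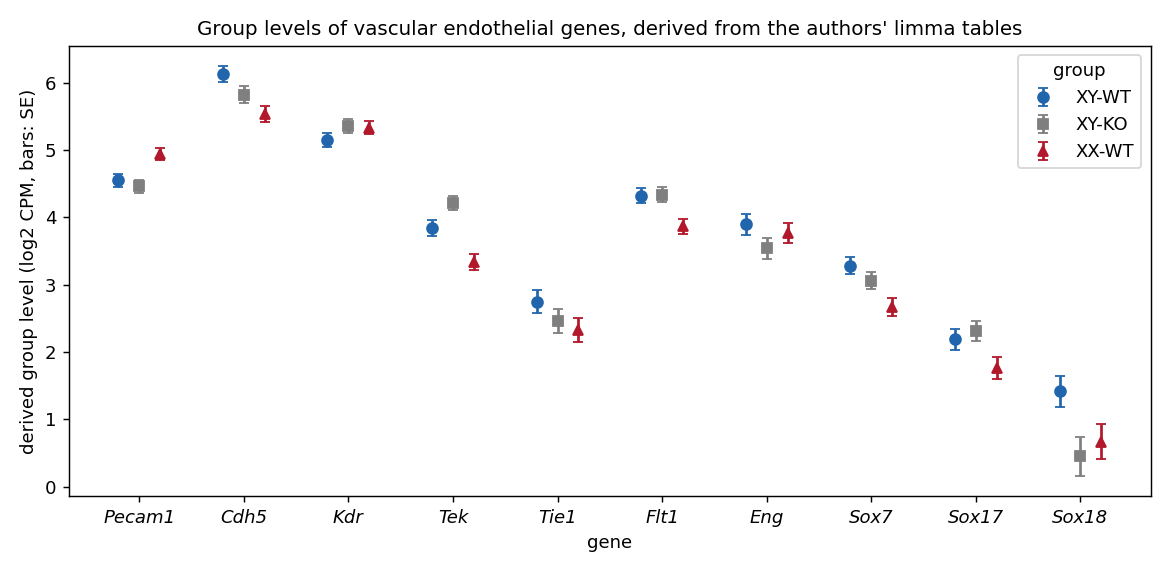
Derived level of each member in log2 CPM in XY-WT (circles), XY-KO (squares) and XX-WT (triangles), with bars of 1 SE. XX-WT is the lowest group for Tek, Flt1 and Sox7 and the highest for Pecam1, and XY-KO is the highest for Tek.

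Pecam1 and Cdh5, the 2 adhesion molecules, differed between ovary and testis in opposite directions. Pecam1 (ENSMUSG00000020717, GRCm38 chromosome 11, 106654217 to 106750628, minus strand) had derived levels of 23.4 CPM in XY-WT, 22.0 CPM in XY-KO and 30.7 CPM in XX-WT. The ovary was the high group and the testis groups lay close together. In the authors' deposited table Pecam1 was 1.31-fold higher in XX-WT than in XY-WT (95% interval 1.08 to 1.58, adjusted p 0.0401). That call ended with adjustment over the 3 comparisons together (adjusted p 0.0560). It was 1.40-fold lower in XY-KO than in XX-WT (95% interval 1.15 to 1.69, adjusted p 0.0163) according to the authors' deposited table. Against XY-WT, the authors' deposited table put XY-KO at -0.09 log2 (SE 0.134, adjusted p 0.760).

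PECAM1 is also carried by fetal germ cells, so germ cell markers are given beside it. This list was added after the values were seen. The authors' deposited table called 5 of 11 measured germ cell markers higher and 1 lower in XX-WT against XY-WT. It called 7 lower and none higher in XY-KO against XX-WT. That is 54.55% and 63.6% called, where 23.3% and 18.3% of all genes were called. Those called higher in ovary included Dazl, an RNA-binding protein of germ cells, at 0.73 and -1.08 log2 in these comparisons, and the transcription factor Sall4 at 1.03 and -1.57, all in the authors' deposited table. The summed derived level of the 11 markers was 489 CPM in XY-WT, 391 CPM in XY-KO and 684 CPM in XX-WT. The marker called lower in ovary was Dppa5a, a gene of pluripotent cells, at -0.72 (adjusted p 0.0148), while Utf1 (-0.53), Dppa3 (-0.09) and Pou5f1 (-0.06) lay below 0 without a call in the authors' deposited table. In XY-KO against XY-WT all 11 markers lay below 0, with a median of -0.35, and the authors' deposited table called 1, Utf1, a factor of pluripotent and germ cells, lower at -1.15. That call, where 2.27% of all genes were called in this comparison, ended after correction for GC and length (adjusted p 0.248). Nanos3, also on the list, was not analysed here. The part of germ cells in the Pecam1 difference was not tested.

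Cdh5 (ENSMUSG00000031871, chromosome 8, 104101625 to 104144511, plus strand), which encodes the adherens junction cadherin of endothelium, had derived levels of 69.8 CPM in XY-WT, 56.6 CPM in XY-KO and 46.2 CPM in XX-WT. Control testis was highest, ovary lowest and the Sox9-deleted testis between them. The authors' deposited table gave Cdh5 as 1.51-fold lower in XX-WT than in XY-WT (95% interval 1.18 to 1.93, adjusted p 0.0163). The intermediate position of XY-KO was not resolved from either control: the authors' deposited table gave -0.30 against XY-WT (SE 0.166, adjusted p 0.342) and 0.29 against XX-WT (SE 0.169, adjusted p 0.274).

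Of the VEGF receptors, Flt1 was called between the control gonads and Kdr was not, and the difference between these genes was not tested. Kdr (ENSMUSG00000062960, chromosome 5, 75932827 to 75978458, minus strand), the main signalling receptor for VEGF-A, had derived levels of 35.5 CPM in XY-WT, 41.0 CPM in XY-KO and 40.2 CPM in XX-WT. No comparison of Kdr passed the test. The authors' deposited table gave 0.18 for XX-WT against XY-WT (95% interval -0.11 to 0.47, adjusted p 0.379). For XY-KO the authors' deposited table gave 0.21 against XY-WT (95% interval -0.09 to 0.50) and 0.03 against XX-WT (95% interval -0.26 to 0.32). Each Kdr interval thus stayed inside a 2-fold change.

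Flt1 (ENSMUSG00000029648, chromosome 5, 147561604 to 147726011, minus strand) encodes a VEGF receptor that binds ligand tightly and signals weakly, acting largely as a trap. Its derived levels were 20.0 CPM in XY-WT, 20.2 CPM in XY-KO and 14.6 CPM in XX-WT, so the testis groups were alike in level and the ovary was low. The authors' deposited table gave Flt1 as 1.37-fold lower in XX-WT than in XY-WT (95% interval 1.09 to 1.74, adjusted p 0.0476). Both testis groups stood at a similar distance from the ovary, yet XY-KO against XX-WT missed the threshold according to the authors' deposited table (0.47, SE 0.158, adjusted p 0.0503). Against XY-WT it was 0.01 (95% interval -0.32 to 0.34, adjusted p 0.980) according to the authors' deposited table. The Flt1 call between control gonads ended after correction for the trend with GC content and transcript length (adjusted p 0.0695), with fold changes centred on the median gene (adjusted p 0.0543) and with adjustment over the 3 comparisons together (adjusted p 0.0654).

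Tek (ENSMUSG00000006386, chromosome 4, 94739289 to 94874976, plus strand), the receptor for angiopoietins, showed the largest difference among the called members. Its derived levels were 14.3 CPM in XY-WT, 18.6 CPM in XY-KO and 10.1 CPM in XX-WT, with the Sox9-deleted testis highest and the ovary lowest. XY-KO was 1.83-fold higher than XX-WT (95% interval 1.44 to 2.33, adjusted p 0.00108) according to the authors' deposited table. Control testis also exceeded ovary: the authors' deposited table gave Tek as 1.41-fold lower in XX-WT (95% interval 1.10 to 1.80, adjusted p 0.0416). The call between the control gonads ended with adjustment over the 3 comparisons together (adjusted p 0.0579). The step from XY-WT to XY-KO was 0.38 log2 (SE 0.157) with an unadjusted p of 0.030 and an adjusted p of 0.211 according to the authors' deposited table, and was not called.

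Tie1 (ENSMUSG00000033191, chromosome 4, 118471191 to 118490061, minus strand), the relative of TEK that modulates its signalling, was lower than Tek per kilobase and less precisely measured. Its derived levels were 6.71 CPM in XY-WT, 5.51 CPM in XY-KO and 5.03 CPM in XX-WT. None of its comparisons was called, with -0.42 (SE 0.246, adjusted p 0.246) for XX-WT against XY-WT in the authors' deposited table. Correction for GC and length took that value to -0.18.

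Eng (ENSMUSG00000026814, chromosome 2, 32646595 to 32682669, plus strand) encodes endoglin, a co-receptor for BMP9 in endothelium. Derived levels were 14.9 CPM in XY-WT, 11.6 CPM in XY-KO and 13.6 CPM in XX-WT, and no comparison passed. The authors' deposited table gave -0.13 for XX-WT against XY-WT (SE 0.212, adjusted p 0.700) and -0.35 for XY-KO against XY-WT (SE 0.219, adjusted p 0.401). The former value turned to 0.11 after correction for GC and length. Eng overlaps Fpgs on the opposite strand and holds a small nucleolar RNA gene, so reads at these places may be shared where counting did not use strand.

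The SOXF factors were all lower in estimate in XX-WT than in XY-WT, and of the 3 only Sox7 passed. Sox7 (ENSMUSG00000063060, chromosome 14, 63943673 to 63950732, plus strand) had derived levels of 9.74 CPM in XY-WT, 8.35 CPM in XY-KO and 6.38 CPM in XX-WT. The authors' deposited table gave Sox7 as 1.53-fold lower in XX-WT than in XY-WT (95% interval 1.16 to 2.01, adjusted p 0.0271). This call ended after correction for GC and length (adjusted p 0.0549). XY-KO lay between the controls and differed from neither by the test, at -0.22 against XY-WT and 0.39 against XX-WT in the authors' deposited table.

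Sox17 (ENSMUSG00000025902, chromosome 1, 4490931 to 4497354, minus strand), which acts in arterial endothelium, had derived levels of 4.56 CPM in XY-WT, 4.96 CPM in XY-KO and 3.39 CPM in XX-WT. Its pattern of a low ovary was like that of Flt1, but the differences from XX-WT were not called: the authors' deposited table gave -0.43 for XX-WT against XY-WT (adjusted p 0.186) and 0.55 for XY-KO against XX-WT (adjusted p 0.0962). Sox18 (ENSMUSG00000046470, chromosome 2, 181669836 to 181671640, minus strand), a factor of vascular and lymphatic development, had derived levels of 2.67 CPM in XY-WT, 1.37 CPM in XY-KO and 1.59 CPM in XX-WT. The authors' deposited table gave -0.97 for XY-KO against XY-WT (SE 0.368, 95% interval -1.75 to -0.18, adjusted p 0.177) and -0.75 for XX-WT against XY-WT (SE 0.346, adjusted p 0.135). Against XY-WT these were the largest falls in estimate among the members, each with a wider error than the other members had there. After correction for GC and length they were -0.56 and -0.40.

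Counted together, 5 of the 10 members were called in XX-WT against XY-WT in the authors' deposited table, 1 higher and 4 lower, where 23.3% of all genes were called, 10.9% higher and 12.4% lower. The members' median was -0.44 log2 against 0.00 over all genes, or -0.36 against 0.04 after correction for GC and length. After correction for GC and length, 1 member was higher and 2 were lower, and adjustment over the 3 comparisons together left 2, Cdh5 and Sox7, both lower. The fold of each called member was below 2 in this comparison.

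In XY-KO against XY-WT, limma called 0 of the 10 members in the authors' deposited table, where 2.27% of all genes were called, 0.699% higher and 1.57% lower. At an unadjusted p under 0.05 there were 2 members, Tek above and Sox18 below the control testis. Of all 15300 genes 2899 reached that threshold, so 2 of 10 is close to the background. Of the 10 members, 9 had a 95% interval inside a 2-fold change in either direction, the exception being Sox18. Such an interval was the usual case, found for 10847 of all 15300 genes. The median was -0.16 for the members and -0.01 for all genes, or -0.03 and 0.04 after correction for GC and length.

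In XY-KO against XX-WT, 2 of the 10 members were called in the authors' deposited table, Tek higher and Pecam1 lower, where 18.3% of all genes were called, 9.16% higher and 9.11% lower. That share of members is close to the background. Centring on the median gene gave 2 higher and 1 lower, Flt1 being the addition. These comparisons share samples, so their values are set side by side and not counted as separate evidence.

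**Figure D2:**
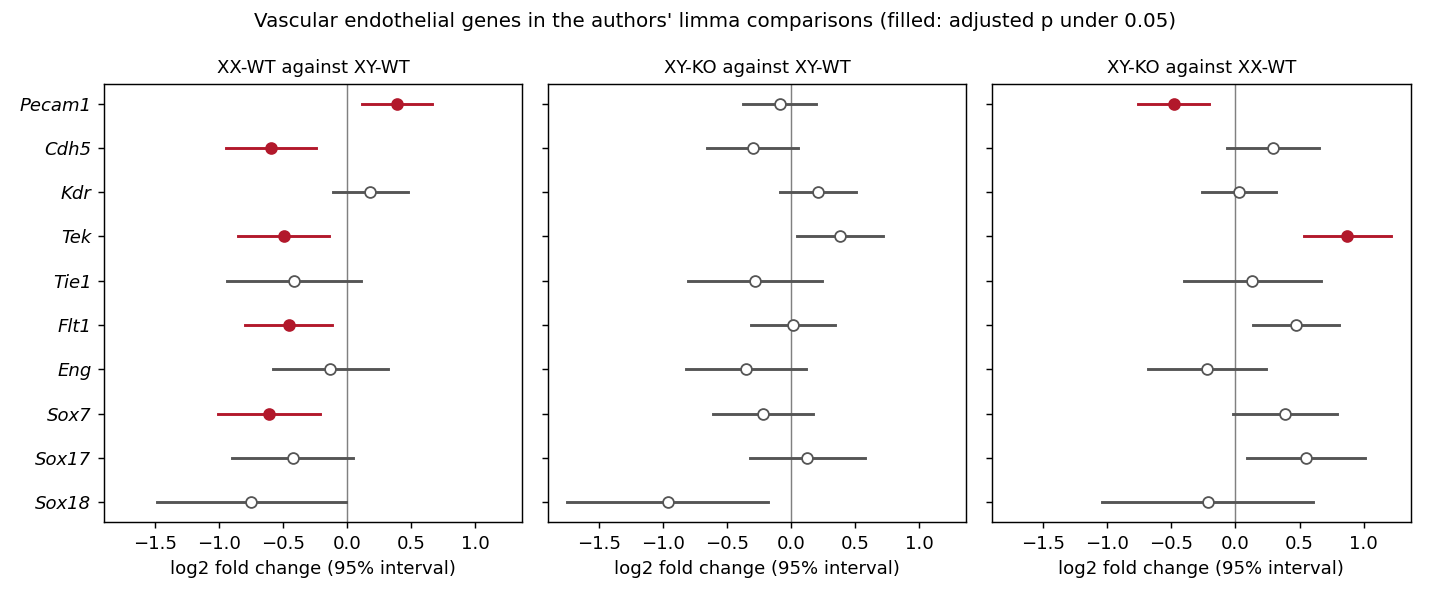
Log2 fold change of each member with its 95% interval in the 3 comparisons; filled points passed an adjusted p of 0.05. Calls are Pecam1, Cdh5, Tek, Flt1 and Sox7 at the left, none in the middle panel, and Pecam1 and Tek at the right.

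Other genes linked to vessels were read from 9 lists with 89 measured genes. Several, such as Jag1, Nr2f2 and Anpep, are not restricted to vessels. The counts are therefore no measure of endothelium, and the cell type behind each call was not tested. In XX-WT against XY-WT, the authors' deposited table called 23 of these lower and 4 higher, with a median of -0.26. That is 30.3% called, where 23.3% of all genes were called, 12.4% lower and 10.9% higher. In XY-KO against XX-WT, 21 were higher and 4 lower (median 0.19) in the authors' deposited table. That is 28.1% called, where 18.3% of all genes were called, 9.16% higher and 9.11% lower. In XY-KO against XY-WT limma called 0, where 2.27% of all genes were called. There 10 of the 89 had an unadjusted p under 0.05 (median -0.05) in the authors' deposited table. Of all 15300 genes 2899 had such a p, so the 10 are no excess. The medians over all genes were 0.004, -0.003 and -0.011 log2 in this order. After correction for GC and length the median in XY-KO against XY-WT was 0.01 for the 89 genes and 0.04 over all genes.

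Among the ligands, Vegfd, a VEGF that acts on lymphatic and blood vessels, was lower in ovary than in control testis, at -2.07 log2 according to the authors' deposited table (SE 0.217, adjusted p 4.50e-06). It was 1.84 higher in XY-KO than in XX-WT (SE 0.22, adjusted p 2.09e-05) and stood at -0.22 against XY-WT in the authors' deposited table. Pgf, a ligand of FLT1, was -1.86 in XX-WT against XY-WT (SE 0.556, adjusted p 0.0238) according to the authors' deposited table. It was not called in XY-KO against XX-WT (1.35, adjusted p 0.128) there. Its mean expression was above that of 2.56% of all genes, with derived levels of 1.07 CPM in XY-WT and 0.293 CPM in XX-WT. Vegfa, the main ligand of KDR, was not called: the authors' deposited table gave 0.32 in XX-WT (adjusted p 0.0935) and 0.35 in XY-KO (adjusted p 0.183) against XY-WT, and the former passed after correction for GC and length (adjusted p 0.0409). Vegfc stood at -0.25 and -0.18 in the same comparisons of the authors' deposited table. The remaining VEGF system genes Vegfb, Nrp1, Nrp2 and Flt4 gave no call in any comparison. Of the 8 genes on this list 25% were called in XX-WT against XY-WT, where 23.3% of all genes were called. In XY-KO against XX-WT 12.5% were called, where 18.3% of all genes were called. In XY-KO against XY-WT 0 were called, where 2.27% of all genes were called.

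In the angiopoietin system 3 genes were measured, Angpt1, Angpt2 and the phosphatase gene Ptprb. None was called by limma in any comparison. The shares of all genes called were 23.3% in XX-WT against XY-WT, 2.27% in XY-KO against XY-WT and 18.3% in XY-KO against XX-WT. Angpt4, also on the list, was not analysed here. The TEK agonist Angpt1 was at -0.62 in XX-WT (adjusted p 0.0768) and -0.32 in XY-KO (adjusted p 0.501) against XY-WT in the authors' deposited table, and the former passed after correction for GC and length (adjusted p 0.0495). Angpt2, the context-dependent antagonist, was at 0.50 and 0.67 in these comparisons of the authors' deposited table, with adjusted p of 0.297 and 0.276. Between XX-WT and XY-WT 1 of the 3 genes had an unadjusted p under 0.05, as did 5413 of all 15300 genes. In XY-KO against XY-WT and against XX-WT 0 of the 3 had, where 2899 and 4513 of all genes had. With 3 genes these counts show no difference between the comparisons.

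Arterial and Notch genes had 4 of 12 lower and none higher in XX-WT against XY-WT in the authors' deposited table, with a median of -0.55. That is 33.3% called, where 23.3% of all genes were called. In XY-KO against XX-WT 41.7% were called, where 18.3% of all genes were called. Values for XX-WT against XY-WT come first. The Notch ligand Jag1 was at -2.73 (SE 0.217, adjusted p 2.32e-07), the arterial connexin gene Gja5 at -2.15 (SE 0.348, adjusted p 0.000286), the netrin receptor gene Unc5b at -0.75 and the Notch target Hey2 at -1.12 in the authors' deposited table. All 4 were called higher in XY-KO than in XX-WT, together with the arterial ephrin Efnb2, at 2.77 for Jag1, 2.10 for Gja5, 1.02 for Unc5b, 1.03 for Hey2 and 0.73 for Efnb2 in the authors' deposited table. Against XY-WT, XY-KO gave no call on this list, with 1 gene at an unadjusted p under 0.05 (limma). Of all 15300 genes 2899 reached that unadjusted threshold, and 2.27% were called. Jag1 is also expressed outside endothelium.

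Of 26 further endothelial surface and secreted markers, 4 were lower and none higher in XX-WT against XY-WT in the authors' deposited table, with a median of -0.28. That is 15.4% called, below the 23.3% of all genes. They were the junction molecule Jam2 (-1.99, adjusted p 5.81e-07), the clotting protein Vwf (-1.21, adjusted p 0.00352), the pericyte-recruiting ligand Pdgfb (-1.28, adjusted p 0.00842) and the adrenomedullin receptor subunit Ramp2 (-0.70, adjusted p 0.0200) according to the authors' deposited table. Pdgfb was scarce, with derived levels of 2.22 CPM in XY-WT and 0.913 CPM in XX-WT. Ramp2 did not pass after correction for GC and length (adjusted p 0.0884). In XY-KO against XX-WT, Jam2 (2.31) and Vwf (1.35) were higher in the authors' deposited table. Plvap, the diaphragm protein of fenestrated vessels, was lower there (-1.16, adjusted p 0.0398). That is 11.5% called, where 18.3% of all genes were called. After correction for GC and length 3 were higher and 1 lower. None was called by limma in XY-KO against XY-WT, where 3 had an unadjusted p under 0.05: Cldn5 (-1.28), S1pr1 (-0.51) and Pdgfb (-0.83), each below XY-WT in the authors' deposited table. Of all 15300 genes 2899 reached that unadjusted threshold, and 2.27% were called.

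Transcription factors of the endothelial and blood lineages had 3 of 15 lower and 1 higher in XX-WT against XY-WT in the authors' deposited table, or 3 and 2 after correction for GC and length, and the median was -0.20. The 26.7% called is close to the 23.3% of all genes. Mef2c was at -1.66 (adjusted p 2.02e-07), Foxc1 at -1.80 (adjusted p 0.000308), Foxc2 at -3.12 (adjusted p 0.000710) and Gata2 at 3.48 (adjusted p 8.27e-08) according to the authors' deposited table. Foxc2 was scarce, with derived levels of 2.62 CPM in XY-WT and 0.301 CPM in XX-WT. The ETS factors Erg and Fli1, which define endothelium, stood at -0.20 each and were not called in the authors' deposited table. XY-KO against XX-WT gave 3 higher and 1 lower, with Gata2 at -3.50, Mef2c at 1.67 and Foxc2 at 2.46 in the authors' deposited table. That is 26.7% called, where 18.3% of all genes were called. In XY-KO against XY-WT the smallest adjusted p of the list was that of Foxc1, 0.0757, at -0.95 in the authors' deposited table.

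The partners of endoglin in BMP9 signalling had 4 of 9 lower and 1 higher in XX-WT against XY-WT in the authors' deposited table. After correction for GC and length these were 2 and 1, and the uncorrected median was -0.21. Before correction 55.6% were called, where 23.3% of all genes were called. In XY-KO against XX-WT 44.4% were called, where 18.3% of all genes were called. Values for XX-WT against XY-WT come first. The inhibitory SMAD gene Smad7 was at -1.04 (adjusted p 4.63e-05), the receptor gene Bmpr2 at -0.45 (adjusted p 0.00568) and the signal transducer Smad5 at 0.57 (adjusted p 0.00143) according to the authors' deposited table. Acvrl1, the type I receptor that works with endoglin, was at 0.85 in XY-KO against XX-WT (adjusted p 0.0133) according to the authors' deposited table, alongside Smad7 at 1.22 and Bmpr2 at 0.57. Of 3 venous genes only Nr2f2 was called, at -0.92 in XX-WT against XY-WT and 0.92 in XY-KO against XX-WT in the authors' deposited table; it is also abundant in the gonadal interstitium. Of 2 lymphatic genes Prox1 was called, at -0.94 and 1.05 in the same comparisons of the authors' deposited table. The other, Pdpn, was not called and stood at 0.20 and 0.11 there. The shares called were 33.3% of venous and 50% of lymphatic genes in both comparisons, where 23.3% and 18.3% of all genes were called. Lyve1, also on the list, was not analysed here.

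Mural cells are the pericytes and smooth muscle that cover vessels. Their 11 markers had 4 lower and 2 higher in XX-WT against XY-WT in the authors' deposited table, with a median of -0.25. That is 54.55% called, where 23.3% of all genes were called. Acta2 was at -2.08, Notch3 at -1.49 and Anpep, a peptidase not restricted to pericytes, at 2.53 in the authors' deposited table. Myh11, the myosin heavy chain gene of smooth muscle, was the other marker called higher in ovary, at 0.96 (adjusted p 0.00171), and it was at -0.68 in XY-KO against XX-WT (adjusted p 0.0159), both from the authors' deposited table. In XY-KO against XX-WT the ovary is the reference, so the signs turn over, and 4 were higher and 2 lower. That is 54.55% called, where 18.3% of all genes were called. Acta2 was at 1.88, Notch3 at 1.23 and Anpep at -2.76 in the authors' deposited table. Limma called 0 in XY-KO against XY-WT, with 1 at an unadjusted p under 0.05. Of all 15300 genes 2899 reached that unadjusted threshold, and 2.27% were called.

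**Figure D3:**
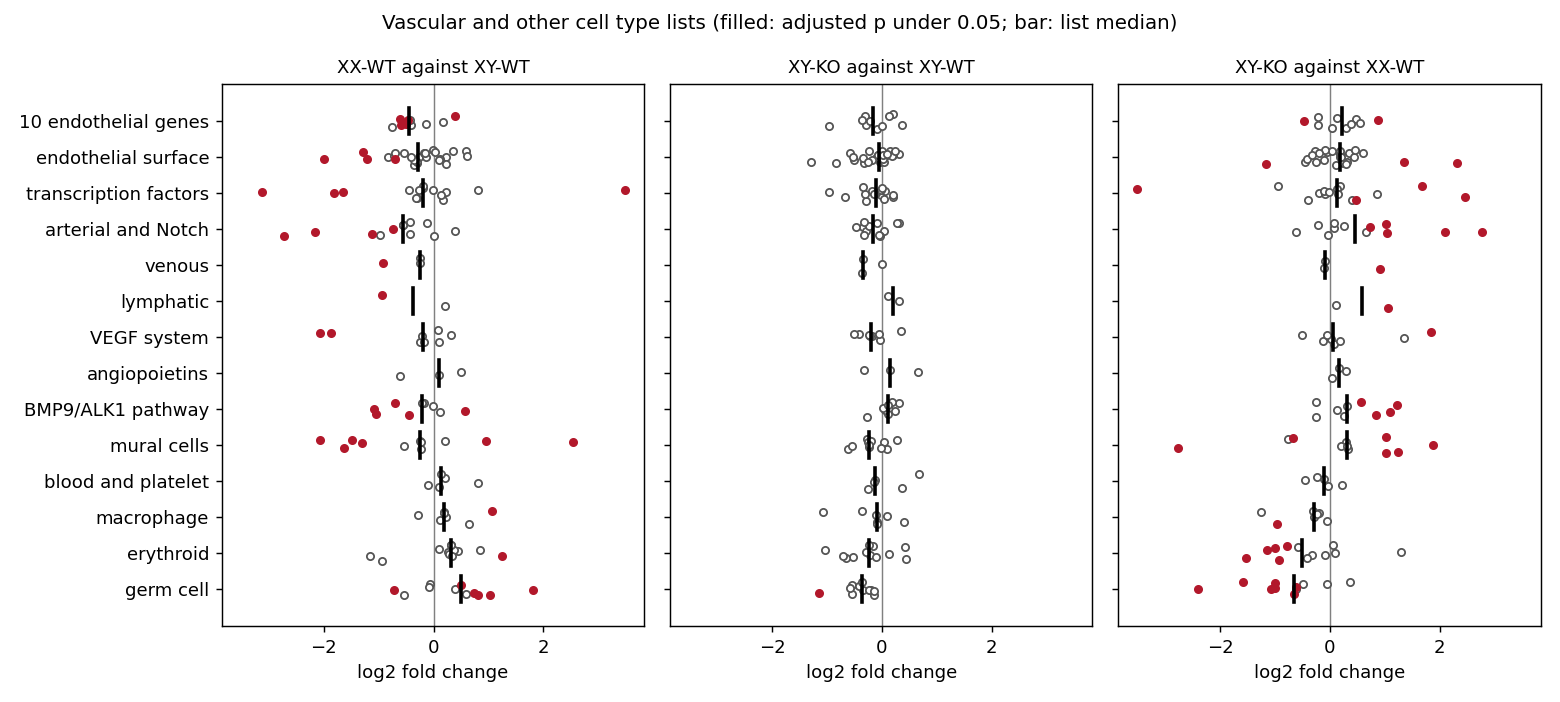
Log2 fold changes of the genes of each list in the 3 comparisons; filled points passed an adjusted p of 0.05 and the bar is the list median. Arterial and Notch genes have medians of -0.55 at the left and 0.46 at the right, and the middle panel has a filled point in the germ cell list alone.

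Blood cells share several endothelial genes, so their markers are given too. Of 5 measured blood and platelet markers none was called by limma in any comparison, and their summed derived level was 19.0 CPM in XY-WT, 18.4 CPM in XY-KO and 22.5 CPM in XX-WT. At an unadjusted p under 0.05 there was 1 in XX-WT against XY-WT, 0 in XY-KO against XY-WT and 1 in XY-KO against XX-WT. Over all 15300 genes there were 5413, 2899 and 4513 in this order. Of 7 measured macrophage markers, Adgre1 was called, at 1.05 in XX-WT against XY-WT and -0.96 in XY-KO against XX-WT in the authors' deposited table. The macrophage share called was 14.3% in both comparisons, where 23.3% and 18.3% of all genes were called. The summed level of the 7 markers was 22.8 CPM in XY-WT, 21.3 CPM in XY-KO and 27.2 CPM in XX-WT. Erythroid markers had 1 of 12 higher in XX-WT against XY-WT and 5 lower in XY-KO against XX-WT in the authors' deposited table. The 5 became 1 after correction for GC and length. Before it the shares were 8.33% and 41.7%, where 23.3% and 18.3% of all genes were called. Hbb-bh1, an embryonic globin, was at 1.24 and -1.53 in these comparisons of the authors' deposited table, and the summed level was 542 CPM in XY-WT, 454 CPM in XY-KO and 841 CPM in XX-WT. In summed level the ovary was the highest group for each of these 3 lists. Among the members the ovary was highest for Pecam1 and lowest for Cdh5, Tek, Flt1 and Sox7. The sums lean on abundant genes, with Hbb-y at 522 CPM in XX-WT. By gene, 4 of 5 blood, 6 of 7 macrophage and 10 of 12 erythroid markers lay above 0 in XX-WT against XY-WT. Those below 0 were Pf4, Cx3cr1, Epor and Klf1. The blood markers Spi1, Vav1, Gp1bb and Gp9 and the macrophage markers Aif1, Fcgr3 and C1qa were not analysed here. The part of blood cells in the members' differences was not tested.

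The patterns nearest to the members' median were sought among 26 genes of the endothelial, arterial, venous and ligand lists at or above median expression. The measure was the distance between the pairs of log2 differences of XX-WT and XY-KO from XY-WT, which rests on 3 group means. The nearest were the ETS factor Ets2 (distance 0.142), the sialomucin Cd34 (0.201), the forkhead factor Foxo1 (0.224), the VEGF and semaphorin co-receptor Nrp1 (0.259) and the apelin receptor gene Aplnr (0.262). None of these 5 was called in XX-WT against XY-WT, and they lay at -0.30, -0.26, -0.33, -0.21 and -0.26 log2 there in the authors' deposited table.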

How the data were processed

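RNA sequencing was made from 9 samples in 3 groups. Per the submitters' processing notes the tools were Trimmomatic 0.30, TopHat2 2.0.8, HTSeq 0.6.1p1 and limma 3.24.0, with the GRCm38 genome. How genes were filtered, whether counting used strand and how samples were weighted are not given in the sources used here. Per the file headers, the authors' deposited tables hold the log2 fold change and the mean log2 expression, the moderated t score, and the limma p-value with its Benjamini-Hochberg adjusted p-value, over 15300 genes in each of 3 comparisons. The mean log2 expression was read as log2 CPM, since its powers of 2 add up to 978109. Of that sum 37.6% lay in the mitochondrial ribosomal gene mt-Rnr2, so CPM of other genes depend on it. The labels' XX-WT, XY-WT and XY-KO were used as groups.

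The members and lists were chosen with earlier results of these data known. Symbols were matched to Ensembl IDs of GENCODE M21, which named 15192 of the genes. SE is the fold change (log2) over its t, with intervals at 15.27 degrees of freedom, at which each t gave the deposited p in all 3 tables. For each gene the 3 fold changes closed to within 0.005. Group levels and their SE were solved from the mean, the fold changes and the 3 SEs, taking groups as independent and of equal weight. Called genes had an adjusted p under 0.05. Alternatives were an adjusted p under 0.01, a 2-fold limit, genes at or above the median expression of 3.19, adjustment over the 3 comparisons, Bonferroni, removal of the trend with GC content and length of the longest transcript (polynomials of degree 3, Huber regression), and centring on the median gene. The trend fit was tested on planted changes. Named genes were all members, up to 3 called genes with the smallest adjusted p per list and comparison, 5 fixed ligands, the 5 nearest patterns and Sox9. Other genes named in the text, among them the germ cell markers, were chosen after their values were seen. The work used pandas 2.3.3, numpy 2.4.6, statsmodels 0.14.6, scipy 1.17.1 and matplotlib 3.10.9 under Python 3.11.15. Depth per sample is unknown here, so no counting interval was computed.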

Additional observations from a re-analysis of the deposited data

How the results depend on the processing

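Of 10 members, 5 were called in XX-WT against XY-WT. Under Bonferroni adjustment, a 2-fold limit or an adjusted p below 0.01 this count was 0, it was 2 under joint adjustment over the 3 comparisons, and it was 3 after correction for GC and length. In XY-KO against XX-WT the 2 calls became 1 at an adjusted p below 0.01, and 0 under Bonferroni adjustment or a 2-fold limit. The count of 0 in XY-KO against XY-WT was also 0 under the 4 alternatives that could have raised it: joint adjustment, correction for GC and length, centring, and genes at or above median expression. The 113 genes of the other fixed vascular and blood lists gave 29 calls in XX-WT against XY-WT. That is 25.7%, where 23.3% of all genes were called. These calls became 10 with Bonferroni adjustment. Among the 49 genes that reached median expression 14 were called, a count out of fewer genes that by itself shows no loss of calls. The 31 calls of the 113 genes in XY-KO against XX-WT were 27.4%, where 18.3% of all genes were called. They became 18 at an adjusted p under 0.01 and 8 with Bonferroni adjustment. Among the 49 genes that reached median expression 19 were called, again out of fewer genes. The share of all genes called under that expression filter is not given here. The 0 calls of the 113 genes in XY-KO against XY-WT, where 2.27% of all genes were called, became 1, Foxc1, with adjustment over the 3 comparisons. Eng turned from -0.13 to 0.11 in XX-WT against XY-WT after correction for GC and length, and the cause was not tested. Among genes at or above median expression the median fold change lay between -0.03 and -0.01 log2 in the 3 comparisons. Leaving out replicates was not run. No paired analysis was possible because the tables used here hold no values per sample.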

Other observations

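Some gonadal signals known from mouse mutants to act on the coelomic vessel were read as well, chosen after the values were seen. Wnt4 and Fst, ovarian genes whose loss lets such a vessel form in XX gonads, were called higher in ovary than in control testis, at 2.23 and 7.27 log2 in the authors' deposited table. Inhbb, which encodes an activin subunit, was called lower in ovary at -2.18 (SE 0.169) in the authors' deposited table. Neither Wnt4 (0.12, adjusted p 0.792) nor Fst (0.59, adjusted p 0.421) nor Inhbb (-0.15, adjusted p 0.598) was called between XY-KO and XY-WT in the authors' deposited table. Pdgfa, a growth factor of the testis, was at -0.49 in XX-WT (adjusted p 0.0414) and -0.63 in XY-KO (SE 0.168, adjusted p 0.0658) against XY-WT in the authors' deposited table. The former call ended after correction for GC and length (adjusted p 0.102). XY-KO lay at -0.14 against XX-WT (adjusted p 0.655) in the authors' deposited table.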
